A study of Sus scrofa with 13 samples.

Results

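The comparison covered longissimus dorsi, the long skeletal muscle of the back, at 30 and 240 days after birth in Guizhou mini-pigs, a small Chinese breed. Its members were the Ensembl genes with an RPKM (reads scaled by gene length and by the size of the library) of at least 1 in either library, which gave 6465 of the 21607 Ensembl genes listed. Of these, 4471 were at RPKM of at least 1 in both libraries, 917 at day 30 only and 1077 at day 240 only, and 4251 had a gene symbol. The libraries belong to a pig series of total RNA in which ribosomal RNA was depleted, with 11 single-tissue libraries (8 organs at day 240 and the same muscle at day 0, day 30 and day 240) and 2 mixtures of several breeds and ages. Each age was 1 library of the same breed, no treatment is named, and the number and sex of the animals behind it are not given in the sources used here. No difference therefore has a replicate check, and no test between ages was possible.

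Between weaning age and adulthood, a pig's muscle grows mainly by enlarging fibres that already exist. Satellite cells, the stem cells of muscle, divide and fuse into the fibres while the animal grows fast, and the connective tissue around the fibres is laid down and then matures. The longissimus dorsi is built mostly of fast fibres that run on glycolysis, and it carries a smaller share of slow fibres that oxidise fatty acids.

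Both libraries carried the defining transcripts of skeletal muscle. The 8 fibre markers with an identifier were all members, and the troponin C of fast fibres (TNNC2) reached 2877 RPKM at day 30 and 10378 RPKM at day 240, while the highest of the 8 other organs was at 8.11 RPKM. Skeletal actin (ACTA1) stood at 3183 and 2998 RPKM. The RPKM values could be turned back into whole reads, with totals of 24445391 reads at day 30 and 32641450 at day 240 against 21685316 to 38581416 over the 11 single-tissue libraries. Reads counted on the listed features were 14.8% of the total at day 30, the fewest counted reads of any single-tissue library at 3620348, and 21.9% at day 240. The median member had 172 reads in its higher library, and 19 members had under 10 reads in both. Intervals below are 95% intervals from these reads and cover counting error only, not differences between animals or between libraries.

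As deposited, RPKM summed to 81849 at day 30 and 130870 at day 240, so the scale of the libraries had to be considered before any gene. A change is given as log2(RPKM + 0.1) at day 240 minus that at day 30, a scale on which changes of low genes come out smaller than they are. As deposited, 1557 members (24.1% of those compared) were higher at day 240 by 2-fold or more and 783 (12.1%) were lower, and the median change was 0.38. Scaled to the same RPKM sum, which divides day 240 by 1.60, the counts were 555 higher and 1564 lower with a median of -0.27. Scaled to the same median ratio, a division by 1.31, they were 876 higher and 1177 lower with a median of 0.00. The share of higher genes among those past 2-fold thus went from 66.5% as deposited to 42.7% and 26.2%. Which direction prevailed was set by the scaling, and for this reason "rose" and "fell" are kept below for members past 2-fold in the same direction under all 3 scalings. By this rule 555 members rose (8.58%) and 783 fell (12.1%), and a further 1002 were higher as deposited only. "Within 2-fold" and "not past 2-fold" refer to the deposited values. The same RPKM sum takes 0.68 off most changes, so that genes with a small fall as deposited can pass 2-fold on that scale, as LAMC1, LAMA4, FBN1, CPT1B, PGAM2, FOS and ACTB below did.

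**Figure D1:**
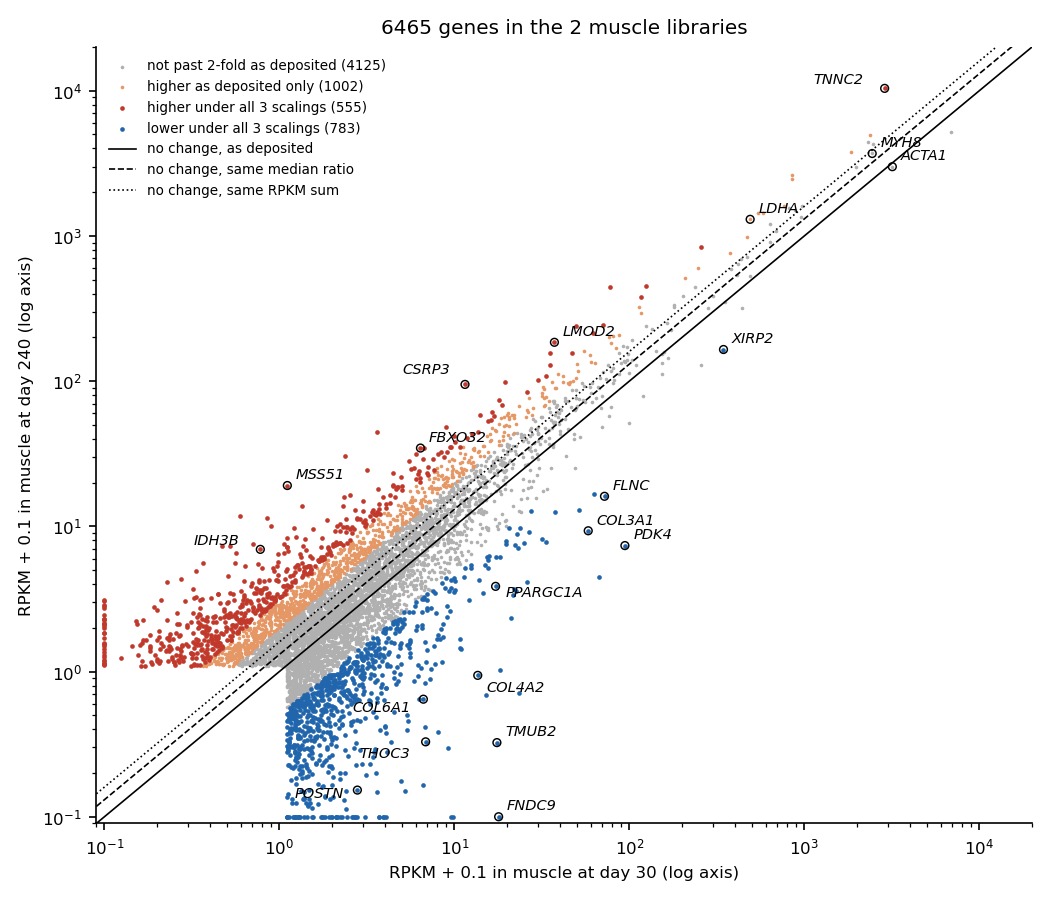
RPKM plus 0.1 of the 6465 members at day 30 (horizontal, log axis) and day 240 (vertical, log axis), 1 point per gene, with lines of no change under the 3 scalings. The points centre above the line of no change as deposited (median change 0.38), while COL3A1, PDK4, FLNC and PPARGC1A stand apart below and MSS51, CSRP3 and LMOD2 above.

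A member at RPKM of 1 or more in only 1 of the libraries entered through the library in which it was high. Among the 4471 members at RPKM of at least 1 in both libraries, 186 rose (4.16%) and 192 fell (4.29%), and the median change was again 0.38. These shares are the ones to set beside the counts of abundant genes below. The gene nearest the limit on the inside was GALM, at 0.440 RPKM at day 30 and 1.0 RPKM at day 240, and the nearest on the outside was PRRC2B, at 0.99977 RPKM at day 30 and 0.446 RPKM at day 240.

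The change also ran with gene length. The median change was 0.45 for members with a length of up to 500 nt, 0.56 from 501 to 1000 nt, 0.49 from 1001 to 2000 nt, 0.43 from 2001 to 3000 nt, 0.20 from 3001 to 5000 nt and 0.06 over 5000 nt. Members that rose made up 22.6% of the shortest class and 1.19% of the longest, whereas members that fell made up 22.8% of the shortest, 8.72% from 2001 to 3000 nt and 15% of the longest. According to the labels, the SMART and the dUTP method both served for the strand-specific libraries, but no label says which library had which, and the part of the method in this trend was not tested. Length-centred values, each set against the median of members of similar length, are therefore given beside the gene list with the most falls and in the limits at the end.

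**Figure D2:**
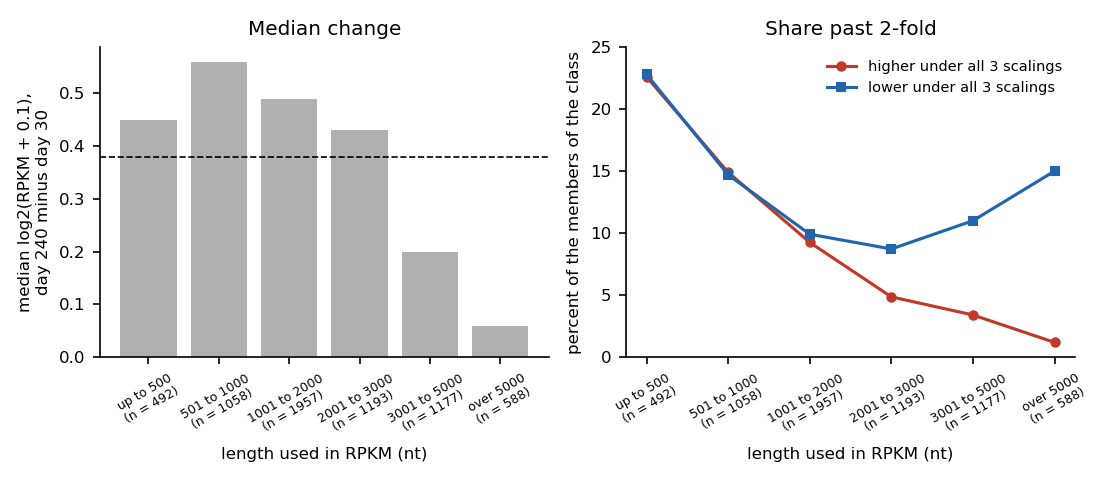
Median change (left, log2 scale, the dashed line is the median of all members) and share of members that rose or fell under all 3 scalings (right, percent) in 6 classes of gene length. The share that rose drops from 22.6% to 1.19% from the shortest to the longest class, and the share that fell is lowest between 2001 and 3000 nt.

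The extracellular matrix was the gene list with the most falls. Of its 33 members, 18 fell and 0 rose, with a median change of -1.08 (0.38 for all members, and -1.36 after length centring). Of the 23 members with an RPKM of at least 1 in both libraries, 9 fell (39.1%, beside 4.29% of all such genes). In these bulk samples, fewer cells of a type and less RNA per cell cannot be told apart.

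Among the fibrillar collagens, COL3A1 was at 58.1 RPKM at day 30 and 9.22 RPKM at day 240, 6.30-fold lower (interval 5.95 to 6.68), from 6767 and 1434 reads. COL1A2, a chain of type I collagen, went from 21.8 to 3.61 RPKM, 6.03-fold lower (5.52 to 6.60). COL5A1, whose chain sets the thickness of collagen fibrils, went from 2.63 to 0.126 RPKM. All 3 fibrillar chains thus fell, and COL5A2 (7.45 to 3.46 RPKM) and COL5A3 (4.88 to 1.02 RPKM) fell with them.

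The basement membrane, the sheet that wraps each fibre, showed falls in several of its parts. COL4A2 of its type IV collagen was at 13.5 RPKM at day 30 and 0.841 RPKM at day 240, 16.0-fold lower (13.6 to 18.9). HSPG2, the proteoglycan perlecan, was 8.09-fold lower (7.13 to 9.22), and NID1, the linker nidogen, 6.40-fold lower (4.61 to 9.08). The laminin chain LAMB1 fell from 6.92 to 3.34 RPKM, while LAMC1 at 17.7 and 9.53 RPKM and LAMA4 at 4.20 and 3.09 RPKM were not past 2-fold. The type VI collagens, which join the membrane to the surrounding fibres, fell in all 3 chains: COL6A1 from 6.55 to 0.545 RPKM, COL6A2 from 10.6 to 1.57 RPKM and COL6A3 from 14.9 to 5.29 RPKM.

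POSTN, or periostin, a matricellular protein of growing connective tissue, had 345 reads at day 30 and 9 at day 240, which was 51.2-fold lower (26.7 to 113). The elastic fibre genes fell as well, with ELN at 1.68 and 0.0628 RPKM (60 and 3 reads) and the fibrillin FBN2 at 1.28 and 0.0488 RPKM, whereas the other fibrillin FBN1 was at 8.18 and 4.75 RPKM, not past 2-fold. Other falls were THBS1 (3.78 to 0.845 RPKM), TNXB (1.40 to 0.511 RPKM), COL15A1 (15.5 to 5.73 RPKM) and PCOLCE, an enhancer of procollagen processing (1.63 to 0.582 RPKM). The small proteoglycan DCN went the other way without passing the limit, at 16.5 and 25.1 RPKM, and its relative LUM was at 5.73 and 5.39 RPKM. SPARC (8.80 and 9.03 RPKM) and COL12A1 (1.84 and 1.93 RPKM) were at nearly the same RPKM in both libraries, and the collagen lysyl hydroxylase PLOD2 was higher as deposited only (0.767 and 1.75 RPKM). The list therefore did not move as 1 block.

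At day 0, 9 of the 18 matrix genes that fell had been above both later ages and 9 between them, and none below. COL1A2 was at 51.2 RPKM at birth and COL3A1 at 24.6 RPKM. In the mixture of muscle from several breeds and ages COL3A1 was at 841 RPKM, COL1A2 at 195 RPKM and POSTN at 269 RPKM, far above either single-age library.

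**Figure D3:**
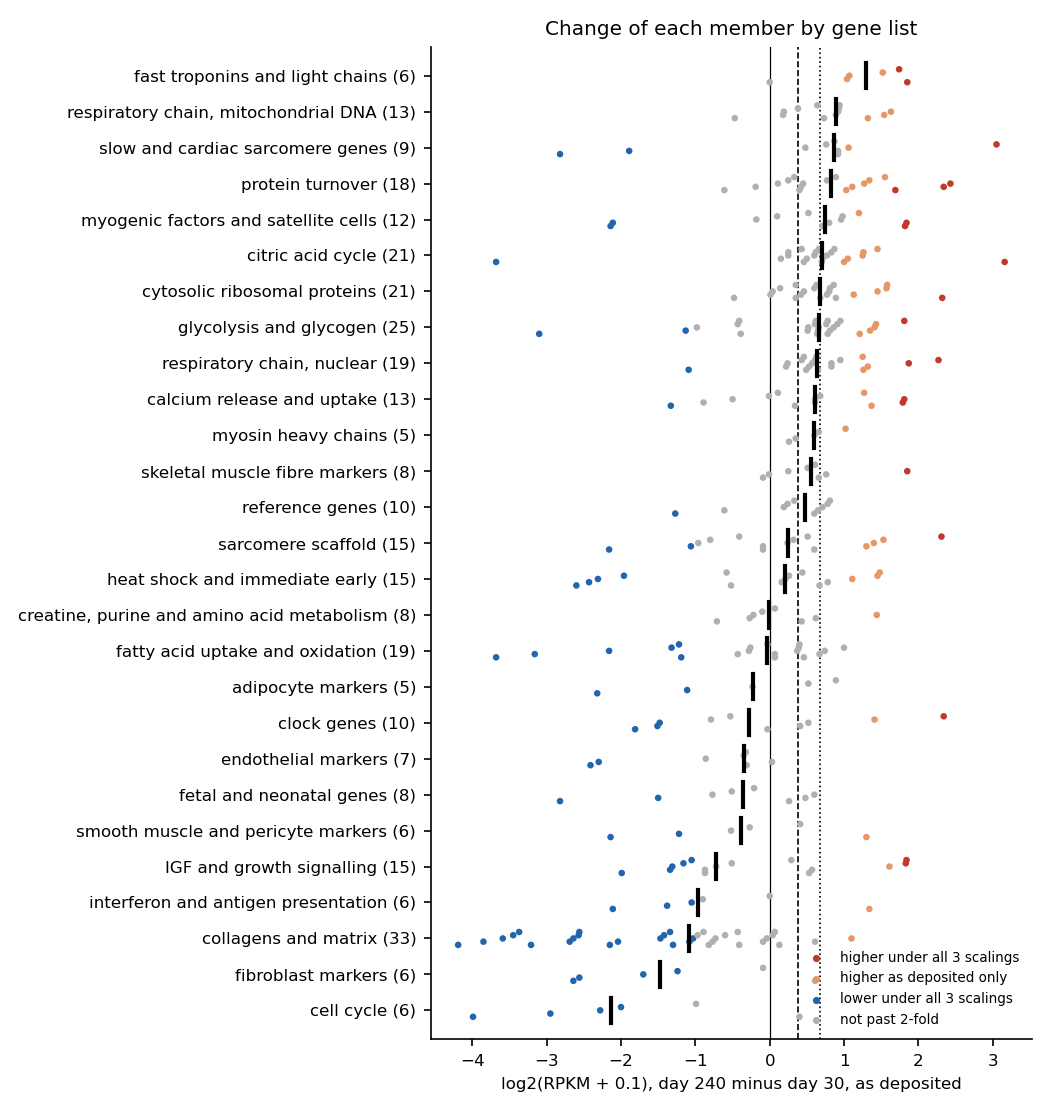
Change of each member on the log2(RPKM + 0.1) scale, as deposited, by gene list (lists with 5 or more members, number in brackets), with the list median as a black bar. Solid, dashed and dotted lines mark no change as deposited, the median of all members (0.38) and no change at equal RPKM sum (0.68). The medians of the matrix, fibroblast and cell cycle lists lie left of all 3 lines, and that of the fast troponins and light chains (1.29) lies furthest right.

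Contractile genes made up a large part of both libraries, and 2 regulators of fast contraction, TNNC2 and MYLK2, rose. Of 6 members among the fast troponins and light chains, 2 rose and 0 fell, and 5 were higher as deposited. Over all members 8.58% rose, 12.1% fell and 24.1% were higher as deposited. All 6 were at RPKM of at least 1 in both libraries, where 4.16% of all such genes rose. The summed RPKM of the list went from 8.95% to 14.9% of the library. TNNC2, the calcium sensor of fast fibres, rose 3.61-fold (3.57 to 3.64) and became the highest Ensembl gene of the day 240 library at 7.93% of its RPKM sum. MYLK2, the kinase that phosphorylates the regulatory light chain, rose from 47.1 to 157 RPKM, 3.34-fold (3.18 to 3.50). Higher as deposited only were TPM1 (2362 and 4947 RPKM), MYL1 (1844 and 3798 RPKM) and MYOZ1 (39.1 and 112 RPKM). The fast myosin-binding protein MYBPC2 was at 153 RPKM at both ages.

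Myosin heavy chains were not past 2-fold under all scalings in any of 5 members. MYH8, named for the perinatal chain, was listed at 1888 RPKM at day 0, 2442 at day 30 and 3695 at day 240, and MYH3, the embryonic chain, at 37.3, 80.7 and 96.3 RPKM. These values are uncertain, since the heavy chain genes lie side by side as near-identical copies that can share reads, and the adult fast chains MYH1, MYH2 and MYH4 had no identifier in the gene table used here. MYH6 was the 1 member higher as deposited only, at 378 and 768 RPKM, with 4521 RPKM in heart.

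Slow fibre and cardiac forms of the sarcomere split in both directions. ACTC1, the cardiac actin that young muscle also makes, fell along the 3 ages from 84.9 RPKM at day 0 to 7.23 at day 30 and 0.939 at day 240, the last step being 7.70-fold (5.55 to 10.9). ANKRD1, a stretch-responsive ankyrin repeat protein of the I-band, fell in the same order at 21.9, 4.66 and 1.18 RPKM. CSRP3, the muscle LIM protein of the Z-disc, rose from 11.4 to 94.8 RPKM, 8.33-fold (7.33 to 9.50), and had been at 327 RPKM at birth. The slow troponin T gene TNNT1 was higher as deposited only (472 and 987 RPKM), and TNNC1 (203 and 383 RPKM), TNNI1 (42.8 and 72.7 RPKM) and MYL3 (92.2 and 175 RPKM) were not past 2-fold.

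In the scaffold of the sarcomere, FLNC, the filamin of the Z-disc, fell from 72 to 16.0 RPKM, 4.51-fold (4.37 to 4.65), with 17.9 RPKM at day 0, so its level was high at day 30 alone of the 3 ages. XIRP2, an actin-binding repeat protein of the same region, fell 2.09-fold (2.07 to 2.11), from 345 to 165 RPKM. LMOD2, which elongates thin filaments, rose from 37.2 to 185 RPKM, 4.96-fold (4.70 to 5.24), and was also at 185 RPKM at birth. Higher as deposited only were DES, the desmin filament (209 and 515 RPKM), TMOD4, which caps thin filaments (113 and 325 RPKM), and SYNPO2 (31.5 and 83.3 RPKM). Nebulin and myomesin were within 2-fold, with NEB at 640 and 911 RPKM and MYOM1 at 81.3 and 101 RPKM.

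Calcium handling genes moved in both directions, with 2 rises, 1 fall and 4 higher as deposited among 13 members. All 13 were at RPKM of at least 1 in both libraries. Of them 15.4% rose and 7.69% fell, beside 4.16% and 4.29% of all such genes. ATP2B1, a calcium pump of the cell membrane, rose from 3.50 to 12.5 RPKM, 3.57-fold (3.17 to 4.03). PVALB, parvalbumin, a calcium buffer of fast fibres, was listed at 0 at day 0, at 19.7 RPKM at day 30 and at 7.77 RPKM at day 240, 2.53-fold lower in the last step (2.07 to 3.10). The store protein HRC was higher as deposited only (41.7 and 108 RPKM). Within 2-fold were the pump ATP2A1 at 352 and 351 RPKM, the triad protein TRDN at 488 and 526 RPKM and the buffer CASQ1 at 420 and 642 RPKM.

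Genes of fatty acid use held 6 falls and 0 rises among 19 members, with a median change of -0.03 beside 0.38 for all members. Over all members 12.1% fell and 8.58% rose. Of the 17 present at RPKM of at least 1 in both libraries 4 fell (23.5%, beside 4.29% of all such genes). PDK4, the kinase that shuts pyruvate out of the citric acid cycle when fat is burned, fell from 94.2 to 7.27 RPKM, 13.0-fold (12.1 to 13.9), after 277 RPKM at birth. PPARGC1A, the coactivator of mitochondrial and oxidative genes, fell from 17.1 to 3.76 RPKM, 4.55-fold (4.02 to 5.16). ANGPTL4, an inhibitor of lipoprotein lipase, was at 12.8, 2.57 and 0.199 RPKM at the 3 ages. UCP3, an uncoupling protein of muscle mitochondria, fell from 4.76 to 1.85 RPKM, and ETFB (12.4 to 5.28 RPKM) and CPT2 (1.29 to 0.508 RPKM) fell also.

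The other members of the fatty acid list did not pass the limit. ACADM was at 21.4 and 42.9 RPKM, HADHA at 30.0 and 47.9 RPKM, CPT1B at 10.6 and 7.83 RPKM and ACADL at 10.6 and 8.75 RPKM. The falls were thus those of PDK4, PPARGC1A, ANGPTL4, UCP3, ETFB and CPT2, while the rest of the list lay within 2-fold.

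In glycolysis, the list was within 2-fold for 18 of 25 members, with 1 rise, 2 falls and a median change of 0.66. HK2, a hexokinase, rose from 0.551 to 2.18 RPKM, 3.96-fold (2.84 to 5.65). PFKFB3, which makes an activator of phosphofructokinase, fell from 4.43 to 0.430 RPKM, and SLC16A3, the lactate exporter, from 1.18 to 0.485 RPKM. None of these 3 reached RPKM of 1 in both libraries, and of the 20 glycolysis genes that did 0 rose and 0 fell. Among the abundant enzymes LDHA was higher as deposited only (490 and 1301 RPKM), and PYGM (435 and 689 RPKM), ENO3 (887 and 1499 RPKM) and PFKM (134 and 229 RPKM) were not past 2-fold. At equal RPKM sum the last 3 changed by -0.01, 0.08 and 0.10 on the log2 scale. PGAM2 was at 257 and 130 RPKM, just short of the limit.

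The citric acid cycle list of 21 members held 1 rise and 1 fall, the latter being PDK4. Of the 20 at RPKM of at least 1 in both libraries, 0 rose and 1 fell. The rise was thus of a gene present at that level at day 240 only. IDH3B, a subunit of isocitrate dehydrogenase, rose from 0.678 to 6.84 RPKM, 10.1-fold (6.72 to 15.8), and had been at 12.5 RPKM at birth, and IDH3G of the same enzyme was at 4.80 and 6.52 RPKM. In the nuclear-encoded respiratory chain, NDUFA9 of complex I rose 3.67-fold (3.36 to 4.02) and COX5A of complex IV 4.96-fold (3.59 to 7.01), while COX7A2 fell from 4.68 to 2.14 RPKM, and the other 16 members did not pass all scalings. The 13 genes of mitochondrial DNA were all members. Their sum went from 8600 to 17262 RPKM, or from 10.5% to 13.2% of the library, 3 of them were higher as deposited only (ND1, COX2 and CYTB), and ATP8 alone of the 13 was lower in RPKM (443 and 320).

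Protein breakdown genes held 3 rises and 0 falls among 18 members, with 8 higher as deposited. Over all members 8.58% rose, 12.1% fell and 24.1% were higher as deposited. Of the 16 list members at RPKM of at least 1 in both libraries, 2 rose (12.5%, beside 4.16% of all such genes). FBXO32, or atrogin-1, a muscle ubiquitin ligase, rose from 6.30 to 34.5 RPKM, 5.47-fold (4.86 to 6.17). FBXO40, a muscle ubiquitin ligase that targets IRS1, rose from 26.0 to 84.0 RPKM, and MAP1LC3A, which coats autophagosomes, from 0.516 to 3.02 RPKM. TRIM63, or MuRF1, the other classical ligase of muscle wasting, was higher as deposited only (80.6 and 205 RPKM), as were the protease CAPN3 (20.0 and 58.7 RPKM) and FOXO4 (1.36 and 2.88 RPKM). FOXO1 was at 1.15 and 1.0 RPKM.

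Among 15 members of growth signalling, 5 fell and 2 rose, and 3 were higher as deposited. Over all members 12.1% fell, 8.58% rose and 24.1% were higher as deposited. IGF1, the muscle's own growth factor, was at 5.78, 6.85 and 3.0 RPKM at the 3 ages, and fell 2.28-fold in the last step (1.79 to 2.91). The receptors INSR (2.67 to 0.991 RPKM) and IGF2R (1.19 to 0.522 RPKM), the binding protein IGFBP6 (1.60 to 0.588 RPKM) and FST, follistatin, which binds myostatin (1.02 to 0.182 RPKM, 42 and 10 reads), fell. MSTN, myostatin, the brake on muscle growth, rose from 1.38 to 5.20 RPKM, 3.76-fold (2.69 to 5.37). IRS1, the adaptor below the insulin and IGF receptors, rose from 2.91 to 10.6 RPKM, 3.65-fold (3.19 to 4.18), and the growth hormone receptor GHR was higher as deposited only (2.45 and 7.67 RPKM). Of the 11 list members with an RPKM of at least 1 in both libraries, 1 fell (IGF1) and 2 rose. These were 9.09% and 18.2%, beside 4.29% and 4.16% of all such genes. Thus 4 of the 5 falls were of genes present at that level at day 30 only.

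Myogenic factors gave 2 rises and 2 falls among 12 members. Of the 9 at RPKM of at least 1 in both libraries 2 rose and 0 fell, beside 4.16% and 4.29% of all such genes. Both falls were thus of genes present at that level at day 30 only. MYF6, the myogenic factor of mature fibres, rose from 4.94 to 17.7 RPKM, 3.58-fold (3.02 to 4.27). The other rise was that of MSTN, which is also counted in the growth signalling list above. CDH15, a cadherin of satellite cells, fell from 1.19 to 0.199 RPKM, 5.96-fold (3.37 to 11.2), and NOTCH3, a receptor of satellite cells and of vessel walls, from 1.21 to 0.199 RPKM. MYOD1 was at 1.01 and 0.877 RPKM and MEF2C at 20.0 and 32.8 RPKM, both within 2-fold.

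Most cell cycle genes were under the limit of 1 RPKM at both ages. Of 22 listed genes with an identifier, 6 were members, and 4 of these fell, all at RPKM of at least 1 at day 30 only, so that they entered through the library in which they were high. CCNB2, a mitotic cyclin, had 67 reads at day 30 and 2 at day 240, a ratio of 44.7 (11.9 to 377). CENPF, a kinetochore protein, was at 0.0355 RPKM at day 0, 1.36 at day 30 and 0.0893 at day 240, and TOP2A, the topoisomerase of dividing cells, at 0.157, 1.63 and 0.257 RPKM. BUB1B, of the spindle checkpoint, was at 0.322, 1.11 and 0.202 RPKM. For each of these genes day 30 was the highest of the 3 ages.

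The nerve contact of the fibre gave 2 falls among 3 members, both of genes at RPKM of at least 1 at day 30 only. MUSK, the receptor kinase that builds the neuromuscular junction, was at 0.447, 1.90 and 0.167 RPKM at the 3 ages, and fell 11.3-fold in the last step (6.51 to 21.4). NCAM1, an adhesion molecule of growing and denervated fibres, fell from 1.15 to 0.346 RPKM, and the sodium channel SCN4A was at 7.51 and 6.25 RPKM. The acetylcholine receptor subunit CHRNA1 stayed under the limit of 1, at 0.454 RPKM at day 30 and listed at 0 at day 240.

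Other cell types left small traces that moved with some of these lists. Fibroblast markers fell in 4 of 6 members (COL1A2, COL3A1, PI16 and FAP), but this list shares genes with the matrix list, and its sum was 106 RPKM at day 30 and 44.9 RPKM at day 240. Endothelial markers summed to 19 and 13.5 RPKM, with ROBO4 and EGFL7 lower in 2 of 7 members and the defining PECAM1 (6.62 and 5.29 RPKM) and KDR (2.63 and 2.04 RPKM) within 2-fold. Of the 6 smooth muscle and pericyte members TAGLN and NOTCH3 fell, and ACTA2 was at 7.95 and 6.58 RPKM. Adipocyte markers summed to 56.3 and 77.5 RPKM, of which 46.4 and 66.5 RPKM were GPD1, an enzyme that muscle also makes, with PNPLA2 and ACLY lower in 2 of 5 members. PLIN1, which coats the fat droplets of adipocytes, was listed at 0 at day 30 and at 0.0194 RPKM at day 240. Macrophage markers summed to 2.42 and 2.09 RPKM, lymphocyte markers to 0.366 and 0.717 RPKM and keratinocyte markers to 0.0553 and 0.0624 RPKM, with no member in any of these 3 lists. HBB of red blood cells was at 7.27 and 9.36 RPKM. Of the falls in the endothelial, smooth muscle and adipocyte lists, TAGLN alone was of a gene at RPKM of at least 1 in both libraries, and for fibroblast markers 2 of 4 such genes fell. Whether the make-up of the tissue pieces had a part in the falls of matrix genes was not tested.

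Stress, clock and defence genes changed in single members. Among 15 heat shock and immediate early genes, CCN1 (1.20 to 0.114 RPKM), GADD45B (2.10 to 0.308 RPKM), MYC (1.13 to 0.147 RPKM) and ATF3 (4.20 to 1.0 RPKM) fell, whereas FOS was at 2.58 and 1.77 RPKM and the chaperones HSPA8 (35.9 and 98.3 RPKM) and DNAJA1 (3.58 and 10.2 RPKM) were higher as deposited only. Of the 11 at RPKM of at least 1 in both libraries, 1 fell (ATF3). Of 10 clock genes, the repressor BHLHE41 rose from 0.174 to 1.29 RPKM, 7.37-fold (4.59 to 12.5), and BMAL1 (2.64 to 0.881 RPKM), NFIL3 (1.18 to 0.265 RPKM) and HLF (1.12 to 0.330 RPKM) fell. None of these 4 reached RPKM of 1 in both libraries, and of the 6 clock genes that did 0 rose and 0 fell. The hour at which the tissue was taken is not given in the sources used here. The interferon-induced OAS2 (2.92 to 0.601 RPKM) and MX1 (1.98 to 0.697 RPKM) and the antigen-presenting SLA-DQB1 (6.40 to 3.04 RPKM) fell, each having been below both later ages at birth, and SLA-DQB1 alone of the 3 was at RPKM of at least 1 in both libraries.

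Ribosomal protein genes and common reference genes had medians above the 0.38 of all members. Of 21 ribosomal and elongation factor members 1 rose, RPLP1, a stalk protein of the ribosome, from 19.4 to 97.8 RPKM, and the list median of 0.68 equalled the shift of the same RPKM sum. Its partner RPLP2 was at 158 and 159 RPKM. The 10 reference genes had a median change of 0.47, among them GAPDH at 2466 and 4325 RPKM and ACTB at 17.0 and 11.1 RPKM, and POLR2A fell from 2.21 to 0.860 RPKM. The 8 members of creatine, purine and amino acid metabolism gave 0 rises and 0 falls, with the mitochondrial creatine kinase CKMT2 higher as deposited only (21.3 and 58.1 RPKM). Of 8 fetal and neonatal genes 2 fell, ACTC1 and the nestin gene NES (1.15 to 0.341 RPKM), and 4 nuclear RNA and splicing controls and the 1 cartilage and tendon member, CILP (8.69 and 12.9 RPKM), did not pass the limit.

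**Figure D4:**
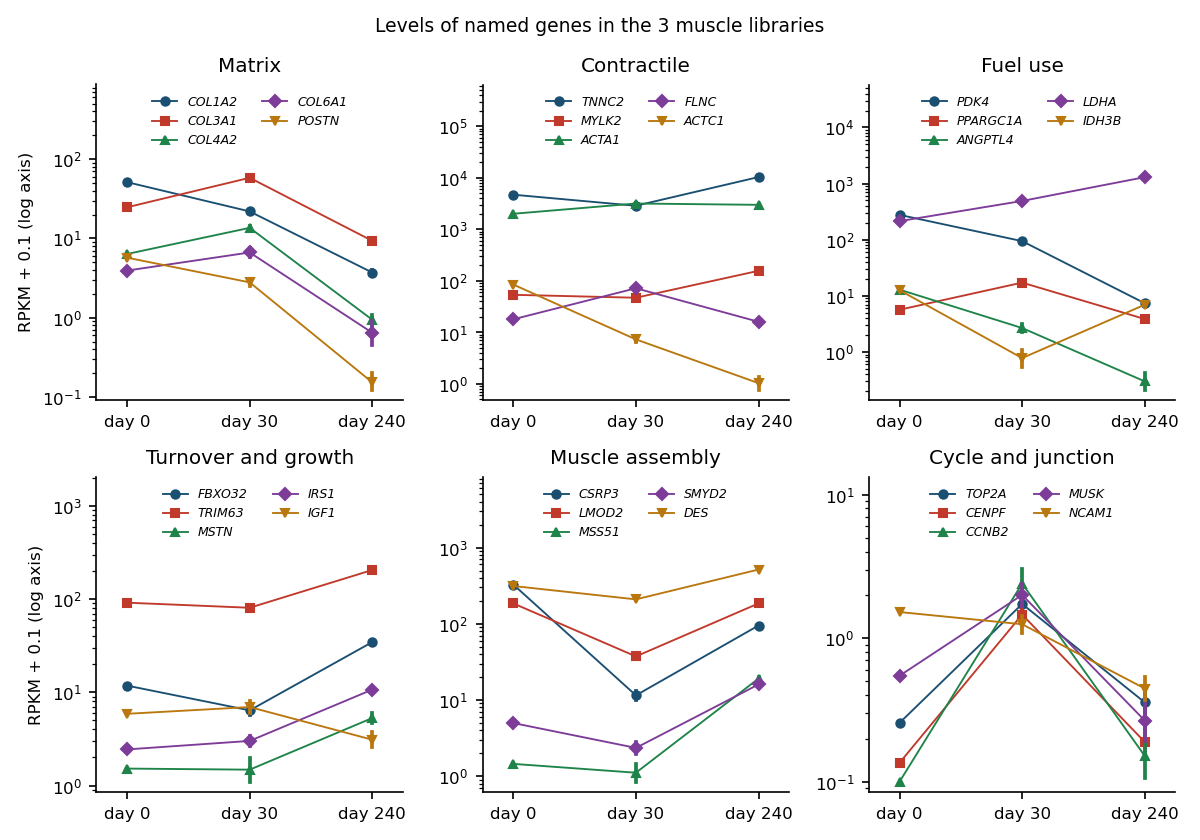
RPKM plus 0.1 (log axis) of 30 named genes in the muscle libraries of day 0, day 30 and day 240, 1 library per age, with vertical bars for the 95% counting interval at day 30 and day 240. From day 30 to day 240 the matrix genes drop, while FBXO32, CSRP3, LMOD2 and MSS51 climb, and TOP2A, CENPF and CCNB2 peak at day 30.

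The 15 largest rises among genes with a symbol and an RPKM of at least 5 were chosen by size and are given as a description. MSS51, a zinc finger protein tied to mitochondria in skeletal muscle, went from 48 to 1208 reads, or 1.01 to 19 RPKM, 18.8-fold (14.1 to 25.7), and was at 1.35 RPKM at birth. TEX9 rose 11.1-fold (7.96 to 15.8), to 13.8 RPKM, SMYD2, a lysine methyltransferase of muscle, 7.05-fold (5.73 to 8.76), to 15.9 RPKM, and CRBN, the substrate receptor cereblon of a ubiquitin ligase, 5.14-fold (4.50 to 5.91), to 28.0 RPKM. IDH3B, CSRP3, FBXO32 and RPLP1, given above, belong to this group. The remaining 7 were DUSP26, a phosphatase (1.15 to 8.39 RPKM), ASB11, a ubiquitin ligase adaptor (0.998 to 7.14 RPKM), ALDH6A1 of valine breakdown (0.696 to 5.04 RPKM), RUFY3 (2.20 to 13.7 RPKM), PGM2L1, which makes glucose 1,6-bisphosphate (1.3 to 8.12 RPKM), DNAJC28 (0.819 to 5.09 RPKM) and ILRUN (8.90 to 48.1 RPKM). At birth, 4 of the 15 had been above both later ages, 10 between them and 1, PGM2L1, below.

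Of the 15 largest falls, 6 were matrix collagens, nidogen and perlecan. FNDC9 was at 17.8 RPKM at day 30 and had no read at day 240, at least 135-fold lower by a floor of 3 reads (0.131 RPKM), with a lower end of 109-fold for its exact counting interval. It was above 0 in only 2 of the 13 libraries, and its read number is a lower bound. TMUB2, a ubiquitin-like membrane protein, went from 232 to 4 reads, 77.4-fold lower (29.8 to 287), and was at 0.512 RPKM at birth. THOC3, of the complex that exports mRNA, went from 244 to 11 reads, 29.6-fold lower (16.3 to 60.1), with 1.06 RPKM at birth. For these 3 genes day 30 was the highest of the 3 ages by a wide margin. MTX1 of the outer mitochondrial membrane (5.30 to 0.358 RPKM), POLR2F, a subunit shared by RNA polymerases (6.67 to 0.738 RPKM), KCTD5, an adaptor of cullin ligases (7.67 to 1.02 RPKM), and the scaffold protein DLGAP4 (6.08 to 0.827 RPKM) completed the group with PDK4 and ACTC1.

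Some members were listed at 0 in 1 of the libraries, 31 at day 30 and 45 at day 240. ADAM12, a metalloprotease of regenerating muscle, had 115 reads at day 30 and none at day 240, at least 51.2-fold lower by the floor of 3 reads. APOE, the lipid carrier, had 54 reads and none, at least 24.0-fold lower. These genes were singled out after their values were seen.

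Across all members, the level at birth lay above both later ages for 58.3%, between them for 27.3% and below for 14.3%. For the members that rose it lay above both for 36.4% and between for 55.0%, and for those that fell for 31.4% and 54.0%. A gene with a wide gap between day 30 and day 240 has more room for a value in between, and the libraries differ in scale, so these shares are a description only. The organ with the highest RPKM among the 8 other than muscle also differed. It was lung for 12.5% of the members that fell (5.96% of all members), spleen for 7.54% (2.95%) and adipose tissue for 6.39% (2.27%), and testis for 18.9% (28.2%). For the members that rose it was heart for 8.29% (7.50%) and testis for 30.6%, each close to the share over all members.

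**Figure D5:**
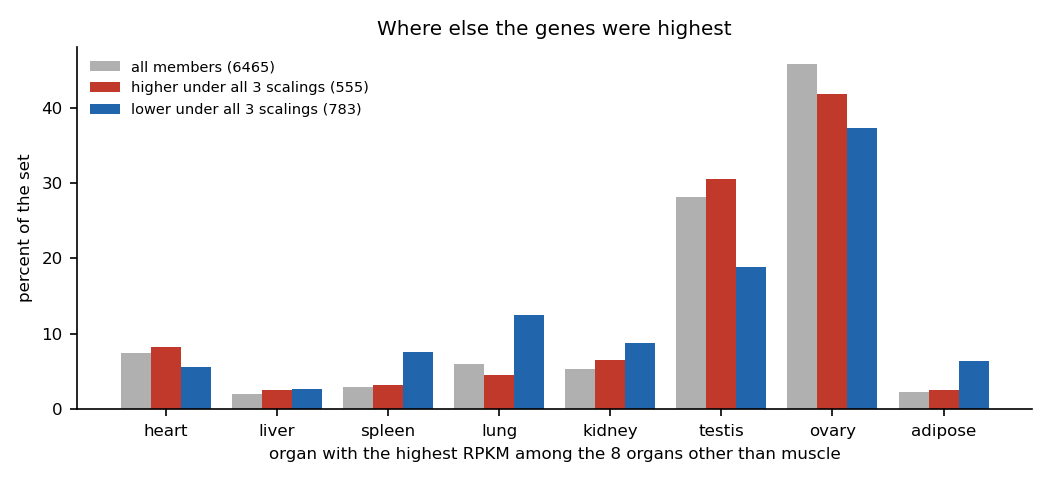
Share (percent) of all members, of members that rose and of members that fell whose highest RPKM among the 8 other organs was in each organ. Among members that fell, lung, spleen, kidney and adipose tissue have larger shares than over all members, and testis and ovary smaller ones.

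A set of genes carried by muscle alone among the organs was drawn from the day 0 library. Of 42 members whose RPKM at day 0 was at least 10 times that in each of the 8 other organs, 13 were higher as deposited and 3 lower (1557 and 783 of all 6465 members), 5 rose and 3 fell, the median change was 0.55, and their share of the RPKM sum was 24.1% at both ages. Of 85 further members for which this held once heart was left out, 7 rose and 9 fell. Beside these counts, 555 (8.58%) of all 6465 members rose and 783 (12.1%) fell. The Ensembl gene with the highest RPKM at day 30, ENSSSCG00000018006, has no symbol in the gene table used here. Its value was 6920 RPKM at day 30 and 5165 RPKM at day 240, with 1030 RPKM at birth and 2.61 RPKM in heart, its highest other organ. Of genes followed across the series, ANK1, an ankyrin of the sarcoplasmic reticulum, was at 29.8 and 29.1 RPKM, the signalling adaptor GRB10 at 1.91 and 2.90 RPKM and NAAA, an amide hydrolase, at 0.616 and 0.426 RPKM, below the limit of 1 and so no member.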

How the data were processed

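Total RNA of longissimus dorsi was depleted of ribosomal RNA and sequenced as strand-specific paired-end libraries, 1 per age. Reads were mapped with TopHat 1.3.2 and assembled with Cufflinks, per the labels and the methods of the study, and htseq-count was used to count reads. The genome build of these libraries is not given in the sources used here. The deposited values are RPKM computed by the authors, with no counts and no statement of which reads make up the total. Of the 21607 Ensembl identifiers, 11654 were paired with a symbol in the gene table used, and names come from it alone.

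From the RPKM values, the total reads of each of 13 libraries and the length of each feature were recovered as the whole numbers that make every value a whole read number (relative tolerance 1e-06), which held for all 29462 features above 0. The same steps were tested on simulated reads of these features. They returned all 13 depths and, for features seen in at least 4 libraries, 21848 of 21928 lengths. In the simulated day 30 and day 240 libraries, 197 of 200 genes changed by 4-fold and 34 of 5632 unchanged genes passed 2-fold. Both libraries were drawn from the day 30 levels at equal scale, with counting error only, and were called without rescaling. The 34 therefore do not measure calls due to scale, library or animal. Fold intervals are exact binomial 95% intervals on the recovered reads, and RPKM intervals exact Poisson ones. Both cover counting error only, and PCR copies are not independent molecules.

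Members, calls and medians used log2(RPKM + 0.1) at 3 scalings. The same-sum factor is the ratio of RPKM sums over all 32420 features, and the median-ratio factor the median ratio of Ensembl genes at RPKM of at least 1 in both libraries. Genes named were the 15 largest rises and 15 largest falls past 2-fold under all 3 scalings with a symbol and RPKM of at least 5 (96 and 59 were eligible), the 10 highest genes of each library and, in each of 35 gene lists, the members past 2-fold and the defining genes. A few others named as levels were chosen after their values were seen. Of 745 listed symbols, 487 were found, and some lists share genes. The members and lists were chosen with earlier results of these data known. A few items under these rules are not reported here. The lncRNA features were not analysed here, and levels in other libraries are context. Alternatives were other scalings, pseudocounts, filters and fold limits, an exact binomial test of reads that compares the 2 libraries and not the ages, and 2 settings chosen after seeing the data. Python 3.11.15, numpy 2.4.6, pandas 2.3.3, SciPy 1.17.1 and matplotlib 3.10.9 were used.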

Additional observations from a re-analysis of the deposited data

How the results depend on the processing

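With 1 library per age, no setting can show how much of a difference belongs to the animals, and the counts depended on the settings. Beside 1557 members higher and 783 lower as deposited, the counts were 555 and 1564 at the same RPKM sum, 876 and 1177 at the same median ratio and 724 and 1309 at the same sum without the 50 highest features. The median change, 0.38 as deposited, turned to -0.27 at the same RPKM sum and to -0.10 without the 50 highest features. A pseudocount of 1 gave 828 and 376. Both an RPKM limit of 0.1 and no limit gave 2551 and 2258, and a limit of 5 gave 606 and 124. At 4-fold the counts were 315 and 301, and at 1.5-fold 2635 and 1245. The exact binomial test with an adjusted p under 0.05 kept 1539 and 772, so counting error took few calls. In 2 settings chosen after seeing the data, members at RPKM of at least 1 in both libraries gave 844 and 192, and centring on members of similar length gave 809 and 1191.

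For the 27 gene lists, the median change less that of all members kept its direction at both pseudocounts. A scaling divides every day 240 value by 1 factor, which nearly cancels in this difference, so the other scalings could not test its direction. The list medians themselves moved with the scale. At the same RPKM sum some turned, for example glycolysis (0.66 to -0.01) and the sarcomere scaffold (0.24 to -0.44). Others kept their direction, for example the fast troponins and light chains (1.29 to 0.61) and the matrix (-1.08 to -1.74). After length centring the difference from all members turned for 1 list, the sarcomere scaffold, from -0.14 to 0.03. With a pseudocount of 1 the distance shrank by over 1.5-fold for the cell cycle list (to -1.21) and the fibroblast list (to -1.06). The 30 genes with the largest changes were chosen among members that rose or fell under every scaling. The scalings therefore could not test their direction, and neither could a pseudocount, which cannot turn the direction of a gene. After length centring none of the 30 turned, but none could. It takes off a class median of 0.06 to 0.56, which is smaller than each of these rises and deepens each fall. The size of the 30 changes did depend on the settings. It changed by over 1.5-fold for 24 of the 30 at the same RPKM sum and for 19 with a pseudocount of 1. No paired analysis was possible because each age is 1 library.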
